A study of Xenopus laevis with 9 samples.

Results

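The genes described here encode the moving parts of motile cilia and the transport system that builds cilia. They were all rows of the deposited count table whose symbol begins with dnah, dnai, dnali, drc, cfap, rsph, tekt or ift followed by a number (dnali needs none), with the L and S copies kept apart. That gave 85 of 58413 rows, or 72 symbols once the copy is disregarded. Of these rows, 65 are called axonemal here (the first 7 prefixes) and 20 are for intraflagellar transport (IFT). The axonemal label follows the prefix alone. It takes in 3 cfap rows for dynein assembly and 8 cfap rows not assigned to a structure here. RNA came from the anterior part of wild-type Xenopus laevis embryos of 3 females, dissected at Nieuwkoop-Faber stage 12.5. They were kept until stage 15 in 10 µM 4-oxo-RA (4-oxo-retinoic acid), in 1 µM RA (retinoic acid) or in DMSO, for which the labels state 10 µM, with 3 libraries per treatment. Whether the 3 libraries of a treatment stem from separate cultures is not stated, so a p-value reflects the spread between these libraries alone, and that spread may be technical. The study asked which genes RA and 4-oxo-RA change in the front of the neurula.

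A motile cilium is built on an axoneme of microtubule doublets around a central pair. Outer and inner dynein arms make the doublets slide, radial spokes and the nexin-dynein regulatory complex control that sliding, and tektins and other filament proteins line the inside of the doublets. IFT trains carry building blocks, with IFT-B moving them toward the tip and IFT-A bringing trains back, and they serve nonmotile cilia as well. In the Xenopus embryo, motile cilia are best known from multiciliated cells of the epidermis, which are specified in the deep layer of the non-neural ectoderm under Notch control and move to the surface later. The transcription factor Foxj1 and Rfx proteins switch on the axonemal genes, and Mcidas and Ccno act earlier, in the choice of cell type and in making many centrioles. The gastrocoel roof plate and the floor plate also carry cilia.

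Library totals ran from 9404644 to 20883648 counts, and the 85 rows took between 0.107% and 0.170% of them. Levels are given as CPM, counts scaled to a common library size after TMM scaling. They cannot be set against each other between genes, because no transcript lengths were available. A group total of 3 counts, the limit that a count of 0 allows, corresponds to 0.0799 CPM in 4-oxo-RA, 0.0731 CPM in RA and 0.0606 CPM in DMSO, for counting error only. The low-count filter kept 60 rows, 45 axonemal and 15 IFT, and 25 were not tested. The embryos had responded to both retinoids: cyp26a1.S, which encodes an enzyme that breaks down RA, averaged 544.7 ± 19.2 CPM in 4-oxo-RA, 1152 ± 150 CPM in RA and 15.3 ± 3.28 CPM in DMSO (SD, n = 3 each).

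No tested cilium gene passed the test under 1 µM RA. None of the 60 passed an adjusted p of 0.05 in edgeR's quasi-likelihood test, where 1.68% of all 20811 tested genes did, and DESeq2 and limma-voom also called 0. At so low a background, 0 of 60 is close to the share of all genes. At an unadjusted p under 0.05 there was 1 of the 60 (1.67%), rsph1.L, against 9.42% of all genes. The 3 RA and 3 DMSO libraries did not overlap for 4 of the 60 (6.67%), all higher in RA, against 14.7% of all genes in either direction. With the replicate number as a block, where 6.67% of all genes passed, 0 of the 60 passed, and the smallest adjusted p was 0.103, for rsph1.L. At an unadjusted p under 0.05 the blocked fit had 7 of the 60, all axonemal and higher in RA, against 18.1% of all genes in either direction. They were rsph1.L, cfap70.L, cfap45.S, dnai2.S, cfap52.L, tekt4.S and rsph9.L.

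Under 10 µM 4-oxo-RA none of the 60 was called against DMSO either, by edgeR, DESeq2 or limma-voom, beside 0.735% of all genes in edgeR. At an unadjusted p under 0.05 there were 0 of the 60, against 6.24% of all genes. The group ranges were apart for 1 of the 60 (1.67%), ift22.L, against 11.2% of all genes. The blocked fit called 0 of the 60 and 3.36% of all genes, with a smallest adjusted p of 0.369 for cfap300.L. At an unadjusted p under 0.05 it had 2 of the 60, against 2589 of all 20811 genes. Both comparisons use the same 3 DMSO libraries. In bulk tissue, a change in the number of ciliated cells and a change in RNA per cell cannot be told apart, and this applies to every value given here.

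The medians of the fitted fold changes were small on every side. Over the 60 genes the median log2 fold change was 0.11 in RA over DMSO, with 45 genes above 0 and 15 below, and the single values ran from -0.53 to 0.91. In 4-oxo-RA over DMSO it was -0.03, with 25 above and 35 below, and a range from -1.08 to 0.53. Over all tested genes the median was 0.00 in both comparisons, and 50% of genes lay above 0 in both. The axonemal genes carried the higher median in RA over DMSO, 0.12 with 37 of 45 above 0, beside 0.01 with 8 of 15 above 0 for the IFT genes. These are counts and medians over genes of the same libraries, and no test was made of them.

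**Figure D1:**
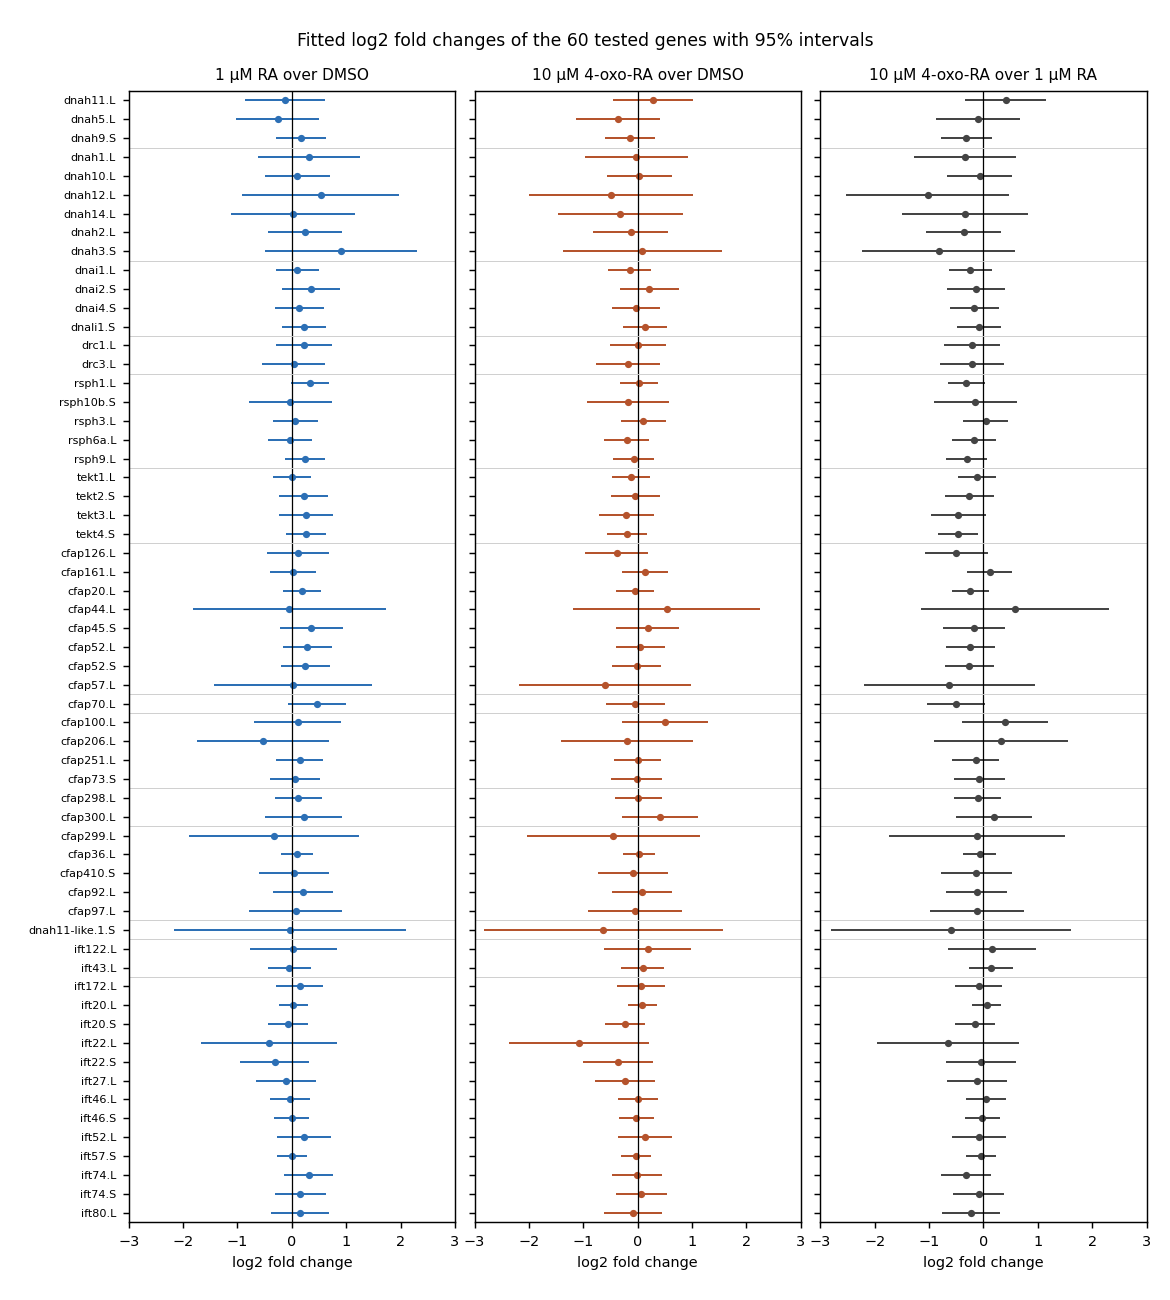
Fitted log2 fold change (points) and 95% interval (lines) of each of the 60 tested genes in 3 comparisons, from the fit without the replicate number. Genes are grouped by role from dynein arms at the top to IFT at the bottom. In RA over DMSO and in 4-oxo-RA over DMSO, only the interval of rsph1.L in RA (0.01 to 0.66) lies to 1 side of 0, and the widest intervals belong to genes with few counts.

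The intervals show what size of change the data could hold. In RA over DMSO the 95% interval lay within a doubling and a halving (between -1 and 1 on the log2 scale) for 49 of 60 genes, and in 4-oxo-RA over DMSO for 48. A total of 13 genes had an interval reaching past 1 in at least 1 of these comparisons, and their mean levels over 9 libraries ran from 0.577 to 14.3 CPM. The other 47 averaged from 2.02 to 75.1 CPM. For these 13 genes, dnah12.L and dnah11-like.1.S among them, a 2-fold change was not excluded in this fit, which leaves out the replicate number. With the replicate number as a block, 51 genes lay within these bounds in RA over DMSO and 49 in 4-oxo-RA over DMSO. The genes were then not all the same. cfap300.L, dnah1.L and dnah5.L lay within the bounds in both comparisons, while dnah11.L reached 1.01 in 4-oxo-RA over DMSO.

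The direct comparison sets 10 µM 4-oxo-RA against 1 µM RA, so the doses differ and the values stand side by side. Here edgeR called 0 of the 60 and 0% of all genes, DESeq2 and limma-voom called 0 of the 60, and the blocked fit called 0 of the 60 and 0.159% of all genes. At an unadjusted p under 0.05 there was 1 of the 60 (1.67%), tekt4.S, against 2.56% of all genes. With the block there were 10 of the 60, all axonemal and lower in 4-oxo-RA, against 7.69% of all genes in either direction. The ranges were apart for 5 of the 60 (8.33%), 1 higher and 4 lower in 4-oxo-RA, against 6.48% of all genes. The median log2 fold change of the 60 in 4-oxo-RA over RA was -0.14, with 11 genes above 0 and 49 below. It was -0.02, with 27 of 62 above 0, when the third 4-oxo-RA library was left out. Leaving out the first one instead gave -0.30, with 6 of 62 above 0.

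Outer dynein arms were represented by 3 heavy chains. dnah9.S, an outer arm motor, stood at 51.3, 55.2 and 32.5 CPM in 4-oxo-RA, at 57.0, 66.7 and 48.6 CPM in RA, and at 58.9, 48.2 and 46.5 CPM in DMSO. All 3 groups overlap, and the lowest value is the third 4-oxo-RA library. Its log2 fold change was 0.17 ± 0.20 (SE) in RA over DMSO (edgeR adjusted p = 0.936) and -0.14 ± 0.20 in 4-oxo-RA over DMSO (adjusted p = 1). dnah5.L, a heavy chain often mutated in human primary ciliary dyskinesia, averaged 7.62 ± 3.38 CPM in 4-oxo-RA, 8.11 ± 2.13 CPM in RA and 9.77 ± 2.95 CPM in DMSO (SD, n = 3 each). dnah11.L, chosen after its values were seen, had 1.99, 2.77 and 2.28 CPM in 4-oxo-RA and 1.92, 1.67 and 1.73 CPM in RA, so it was the 1 gene with all 4-oxo-RA libraries above all RA libraries, at a log2 fold change of 0.41 ± 0.33 (adjusted p = 1).

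Inner arm heavy chains gave 6 tested genes of 7, and none was called in any of the 3 comparisons. dnah10.L and dnah2.L, the heavy chains of the double-headed inner arm, had the highest counts of this group. dnah10.L averaged 27.5 ± 8.88 CPM in 4-oxo-RA, 28.8 ± 7.20 CPM in RA and 26.9 ± 5.21 CPM in DMSO. dnah2.L averaged 19.1 ± 6.94, 24.5 ± 4.54 and 21.0 ± 6.94 CPM in 4-oxo-RA, RA and DMSO (SD, n = 3 each). The groups overlapped for both. The other inner arm genes had fewer counts, and dnah12.L had the lowest fitted value of all 60 in 4-oxo-RA over RA, -1.03 ± 0.67 (adjusted p = 1), from 1.88, 1.03 and 0.261 CPM in 4-oxo-RA and 3.298, 1.31 and 1.73 CPM in RA.

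Among the smaller dynein chains, dnai1.L and dnai2.S encode the intermediate chains at the base of the outer arm, and dnali1.S a light chain of inner arms. dnai1.L averaged 38.0 ± 6.81 CPM in 4-oxo-RA, 45.01 ± 6.47 CPM in RA and 42.0 ± 5.01 CPM in DMSO. dnali1.S had 65.8, 56.1 and 38.6 CPM in 4-oxo-RA, 57.4, 60.5 and 52.3 CPM in RA, and 46.9, 49.5 and 49.6 CPM in DMSO. Every RA library was above every DMSO library, while the 4-oxo-RA libraries held both the highest and the lowest of the 9 values. The log2 fold change of dnali1.S in RA over DMSO was 0.22 ± 0.17 (adjusted p = 0.852). dnai2.S had a larger fitted value, 0.35 ± 0.24, with overlapping groups (edgeR adjusted p = 0.784, and 0.214 with the block).

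The radial spokes held the gene nearest to the threshold. rsph1.L, a protein of the spoke head, had 69.9, 57.4 and 55.3 CPM in 4-oxo-RA, 69.5, 70.8 and 86.8 CPM in RA, and 63.6, 51.0 and 65.3 CPM in DMSO. The RA libraries were all above the DMSO libraries, and the 4-oxo-RA libraries reached into both. The log2 fold change was 0.34 ± 0.15 in RA over DMSO (95% interval 0.01 to 0.66, edgeR adjusted p = 0.497) and 0.02 ± 0.15 in 4-oxo-RA over DMSO (adjusted p = 1). Of the other spoke-head genes, rsph9.L had 0.24 ± 0.16 in RA over DMSO (edgeR adjusted p = 0.786, and 0.274 with the block). rsph6a.L had -0.03 ± 0.18 there (adjusted p = 0.993, and 0.929 with the block). The nexin-dynein regulatory complex was represented by drc1.L, at 18.0 ± 4.04, 20.8 ± 3.18 and 17.9 ± 4.87 CPM in 4-oxo-RA, RA and DMSO, and drc3.L, at 9.53 ± 3.44, 10.96 ± 0.467 and 10.7 ± 1.84 CPM.

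**Figure D2:**
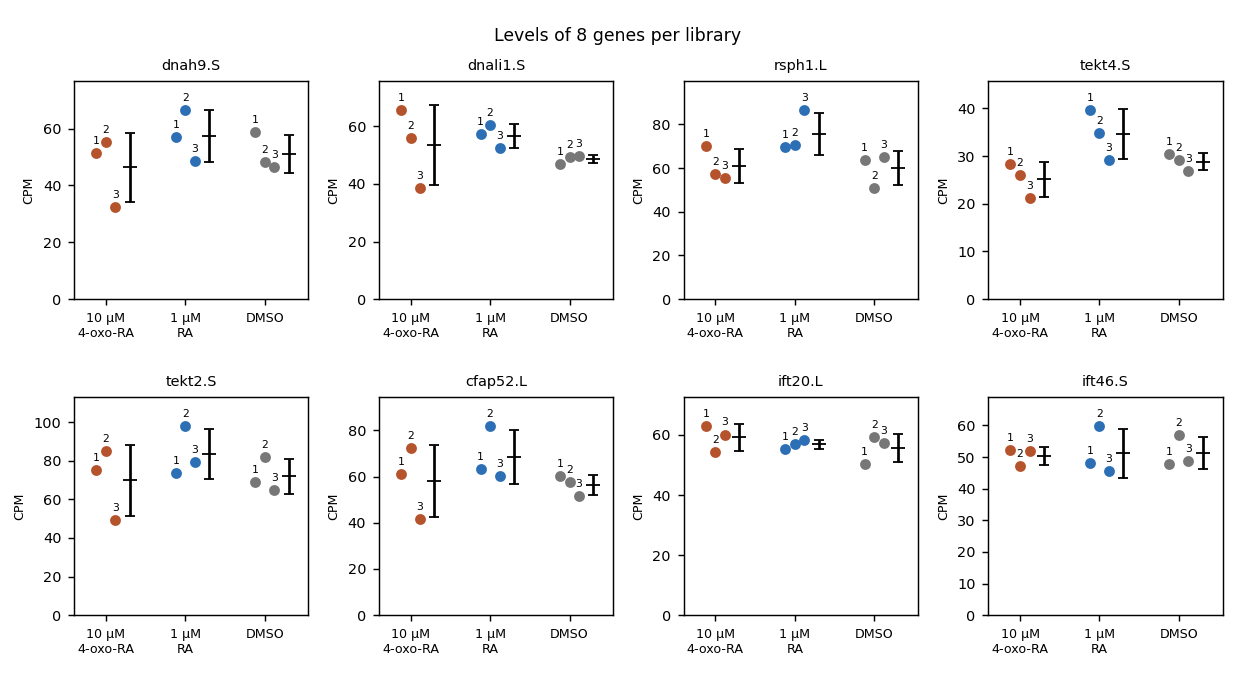
Level in CPM of 8 genes in each of 9 libraries (points, numbered by replicate), with the mean and SD of each group (black). Replicate 3 of 4-oxo-RA is the lowest of the 9 values for dnah9.S, dnali1.S, tekt4.S, tekt2.S and cfap52.L but not for rsph1.L, ift20.L or ift46.S.

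The tektins are filament proteins of the doublet lumen. Over the 4 tested rows their median log2 fold change in 4-oxo-RA over RA was -0.36, the most negative of the role groups with more than 1 tested gene. The 6 tested inner arm heavy chains were close to it, at -0.35. Over all tested axonemal genes the median was -0.17, and it was -0.04 without the third 4-oxo-RA library. tekt4.S had 28.3, 26.0 and 21.2 CPM in 4-oxo-RA, 39.8, 34.9 and 29.2 CPM in RA, and 30.4, 29.2 and 26.9 CPM in DMSO. Its 4-oxo-RA libraries were all below its RA libraries, and DMSO overlapped with both. The log2 fold change in 4-oxo-RA over RA was -0.46 ± 0.16 (unadjusted p = 0.0148, adjusted p = 1 in edgeR, and adjusted p = 0.23 with the block). tekt3.L, chosen after its values were seen, had the same order of groups, with -0.46 ± 0.22 in 4-oxo-RA over RA (adjusted p = 1). tekt2.S averaged 69.7 ± 18.3 CPM in 4-oxo-RA, 83.6 ± 12.9 CPM in RA and 71.9 ± 8.92 CPM in DMSO, with overlapping groups.

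The cfap rows, named only for association with cilia and flagella, were split by the structure or process their proteins belong to. A total of 8 were left unassigned. Of the doublet-lumen and tether group, 8 of 12 were tested. cfap52.L, an inner lumen protein, had 60.9, 72.2 and 41.5 CPM in 4-oxo-RA, 63.4, 82.0 and 60.2 CPM in RA, and 60.03, 57.6 and 51.4 CPM in DMSO. The RA libraries were all above the DMSO libraries, by as little as 60.2 over 60.03 CPM. The log2 fold change was 0.28 ± 0.20 (edgeR adjusted p = 0.801, and 0.235 with the block). cfap20.L, at the inner junction of the doublet, averaged 35.7 ± 5.305, 42.1 ± 4.46 and 37.0 ± 3.37 CPM in 4-oxo-RA, RA and DMSO. cfap70.L, a central pair protein in Chlamydomonas, had 22.5, 29.1 and 14.6 CPM in 4-oxo-RA, 27.9, 36.1 and 29.4 CPM in RA, and 26.4, 22.8 and 19.0 CPM in DMSO. It had the largest log2 fold change in RA over DMSO among genes with ranges apart, 0.46 ± 0.23 (edgeR adjusted p = 0.627, and 0.109 with the block).

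Proteins at the base of the spokes and in dynein assembly gave the same picture of overlap. cfap251.L, a spoke-associated protein, averaged 41.3 ± 11.2 CPM in 4-oxo-RA, 45.5 ± 3.96 CPM in RA and 41.2 ± 2.22 CPM in DMSO. cfap298.L, needed to put dynein arms together in the cytoplasm, averaged 45.6 ± 7.33, 49.1 ± 6.01 and 45.2 ± 9.67 CPM in the same order (SD, n = 3 each). cfap300.L, another dynein assembly factor, had 22.3, 17.2 and 9.58 CPM in 4-oxo-RA and 13.9, 14.2 and 8.71 CPM in DMSO. Each of its 4-oxo-RA libraries was above the DMSO library of the same number, and its fold change of 0.41 ± 0.31 was not called (adjusted p = 1, and 0.369 with the block).

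The summed level of the axonemal rows varied within each treatment. Over the 65 rows it was 1162, 1064 and 770.1 CPM in 4-oxo-RA, 1161, 1224 and 1039 CPM in RA, and 1102, 953.9 and 973.9 CPM in DMSO. The third 4-oxo-RA library is the lowest of the 9 and the second RA library the highest, 1.59 times apart. The group means were 998.7 ± 204, 1141 ± 94.1 and 1010 ± 80.4 CPM (SD, n = 3 each). Between libraries with the same replicate number, the sum was higher in RA than in DMSO in all 3 pairs, and higher in 4-oxo-RA than in DMSO in the first 2 pairs and lower in the third. The IFT rows summed to 419.2, 368.5 and 339.0 CPM in 4-oxo-RA, 386.8, 416.4 and 358.6 CPM in RA, and 381.8, 389.7 and 366.4 CPM in DMSO. These span 1.24 times, and the third 4-oxo-RA library is again the lowest. Within each treatment the IFT sum was lowest in replicate 3. The axonemal sum was lowest in replicate 3 in 4-oxo-RA and RA, and in replicate 2 in DMSO.

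**Figure D3:**
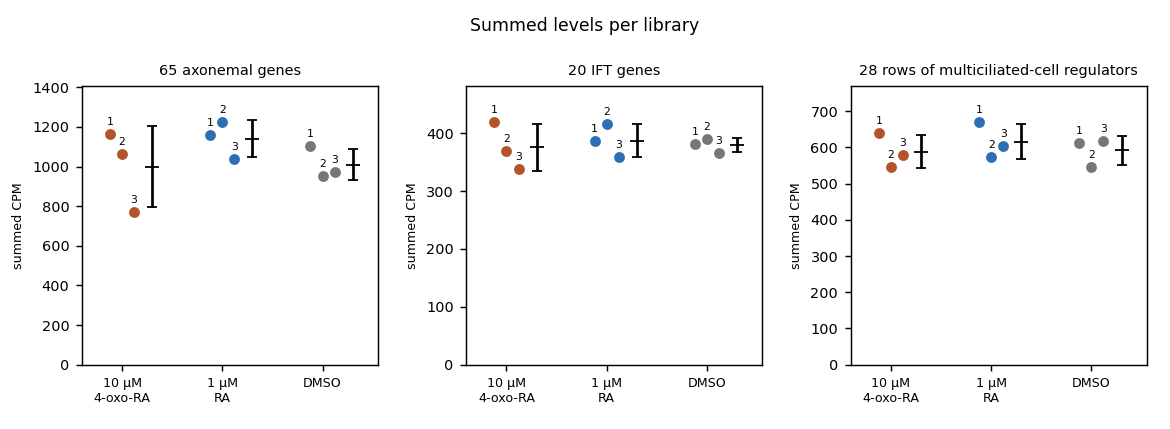
Summed CPM of the axonemal rows, the IFT rows and the rows of a list of multiciliated-cell regulators in each library (points, numbered by replicate), with the mean and SD of each group (black). The third 4-oxo-RA library is the lowest for axonemal rows at 770.1 CPM, while for the regulators, a list with widely expressed genes among its members, it stands at 579.6 CPM, inside the range of the other libraries.

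The low library touched most axonemal genes at once. The third 4-oxo-RA library had the lowest CPM of the 9 for 30 of 45 tested axonemal genes (66.7%) and for 5 of 15 IFT genes (33.3%). Over all tested genes it was lowest for 10.8%. In log2 CPM, its median deviation from each gene's mean over 9 libraries was -0.44 for axonemal genes, -0.20 for IFT genes and 0.01 for all tested genes. For the IFT genes the third RA library was lowest more often, for 6 of 15 (40%), with a median deviation of -0.15. The first 4-oxo-RA library lay at 0.15 for axonemal genes, and the second RA library at 0.26. A smaller dip was shared by the replicate number. For axonemal genes replicate 3 had the lowest median deviation in RA, at -0.04, and in DMSO, at -0.13, as it did in 4-oxo-RA. Some lists of cilium genes outside the rule were also low there: the median deviation in the third 4-oxo-RA library was -0.44 for 15 other axonemal genes, such as central pair and ruler proteins, and -0.30 for 14 dynein assembly and docking genes. It was -0.07 for 19 regulators of multiciliated cells and -0.09 for 14 centriole amplification genes. It was likewise -0.07 for 14 genes of IFT motors and further IFT subunits and -0.05 for 10 BBSome genes. By rank the regulators were mixed. The third 4-oxo-RA library was lowest for 5 of the 19 (26.3%), foxj1.S among them, and highest for 4 (21.1%). Over all tested genes these shares were 10.8% and 9.86%. For the centriole amplification genes this library was lowest for 0 of 14. Its total of 15884096 counts and its TMM factor of 0.968 lay within the range of the other libraries.

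The sign of the axonemal median against DMSO depended on single libraries. Over all libraries the median log2 fold change of axonemal genes in 4-oxo-RA over DMSO was -0.04, with 18 of 45 above 0. Without the third 4-oxo-RA library it was 0.13, with 35 of 46 above 0, and without the first one it was -0.17, with 5 of 46 above 0. Without the first DMSO library it was 0.05, with 26 of 47 above 0. In RA over DMSO the axonemal median was 0.12 with all libraries and above 0 without any 1 of them. It was 0.27 without the first DMSO library, with 42 of 47 above 0, 0.22 without the third RA library, with 41 of 45 above 0, and 0.07 without the second RA library, with 28 of 46 above 0. No gene was called in any of these fits.

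**Figure D4:**
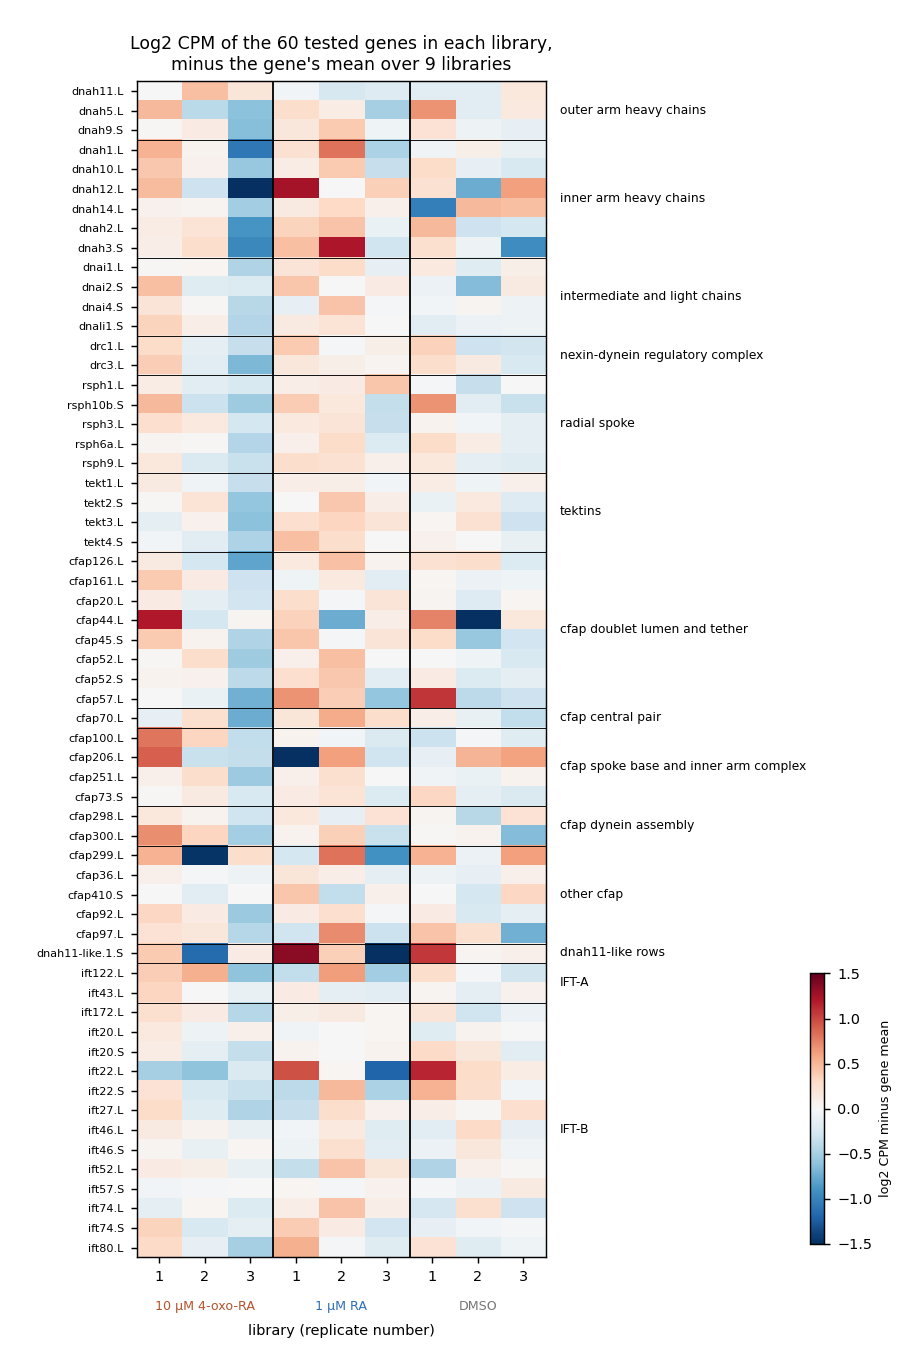
Log2 CPM of each of the 60 tested genes in each library minus that gene's mean over the 9 libraries, as a colour (red above the mean, blue below, with values beyond 1.5 drawn at the end of the scale), by role. The third 4-oxo-RA column is blue for most axonemal genes, with a median of -0.44, and paler for the IFT genes, with a median of -0.20.

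The 17 IFT-B rows summed to between 316.9 and 384.8 CPM in the 9 libraries. ift20.L, an IFT-B subunit that also works at the Golgi, had 63.1, 54.4 and 60.1 CPM in 4-oxo-RA, 55.2, 56.9 and 58.4 CPM in RA, and 50.5, 59.4 and 57.3 CPM in DMSO. The groups overlapped, and the log2 fold changes were 0.03 ± 0.12 in RA over DMSO (edgeR adjusted p = 0.989, 95% interval -0.23 to 0.28) and 0.09 ± 0.12 in 4-oxo-RA over DMSO (adjusted p = 1, 95% interval -0.17 to 0.34). ift46.S, which in Chlamydomonas is needed to carry outer arm dynein, averaged 50.4 ± 2.87 CPM in 4-oxo-RA, 51.2 ± 7.70 CPM in RA and 51.2 ± 5.07 CPM in DMSO. ift172.L, which acts where trains turn round at the tip, averaged 31.0 ± 7.16, 32.8 ± 1.25 and 29.7 ± 5.08 CPM in the same order.

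The IFT-A genes were few, with 2 of 3 rows tested. ift122.L, a core IFT-A subunit, had 14.8, 16.7 and 7.50 CPM in 4-oxo-RA, 8.89, 17.9 and 7.97 CPM in RA, and 13.8, 11.2 and 9.44 CPM in DMSO. Its libraries varied by more than 2-fold within both retinoid groups, and its fold changes were 0.02 ± 0.36 in RA over DMSO and 0.18 ± 0.36 in 4-oxo-RA over DMSO (adjusted p = 0.996 and 1). The widest IFT value was that of ift22.L, which encodes a small GTPase of IFT-B. It had 0.940, 0.871 and 1.17 CPM in 4-oxo-RA, 2.84, 1.43 and 0.526 CPM in RA, and 3.23, 1.72 and 1.52 CPM in DMSO, so all 4-oxo-RA libraries were below all DMSO libraries at a low level, with a fold change of -1.08 ± 0.58 (adjusted p = 0.953). Its S copy, ift22.S, chosen after its values were seen, had -0.37 ± 0.28 (adjusted p = 1).

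A share of the rows had few or no counts. Of the 25 rows not tested, 10 were at 0 counts in all 9 libraries: cfap20.S, cfap46.L, cfap53.L, cfap58.S, cfap61.L, cfap97d1.S, dnai3.L, dnali1.L, ift88.S and rsph14.L. The other 15 had at least 1 count, and at most 18 counts in any library. ift88.S, one of the 10 rows at 0, encodes a core IFT-B subunit. The counter and annotation are not known here, so its 0 is uncertain as a level. How reads shared between near-identical copies were counted is not known here, so a row at 0 beside a well counted partner, such as dnali1.L beside dnali1.S, is uncertain as a level of that copy.

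For 13 symbols both the L and the S copy were in the table, and in 8 of them 1 copy took nearly all counts: L for cfap20, cfap298, ift27 and tekt1, and S for cfap45, dnali1, ift81 and tekt2. The favoured copy had the higher share in all 9 libraries. Both copies were counted throughout for cfap52, ift20, ift46, ift74 and ift22. The L copy of cfap52 held 74.9 ± 2.28% of its pair's counts in 4-oxo-RA, 75.0 ± 2.34% in RA and 74.5 ± 1.89% in DMSO. For ift46 it held 42.7 ± 2.64%, 41.7 ± 1.19% and 42.1 ± 1.90% in the same order (SD, n = 3 each). For these pairs the treatments overlapped. For ift20 it held 67.2 ± 3.33%, 63.8 ± 0.843% and 62.1 ± 5.14%. All 4-oxo-RA libraries were above all RA libraries there, DMSO overlapped with both, and no test was made.

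**Figure D5:**
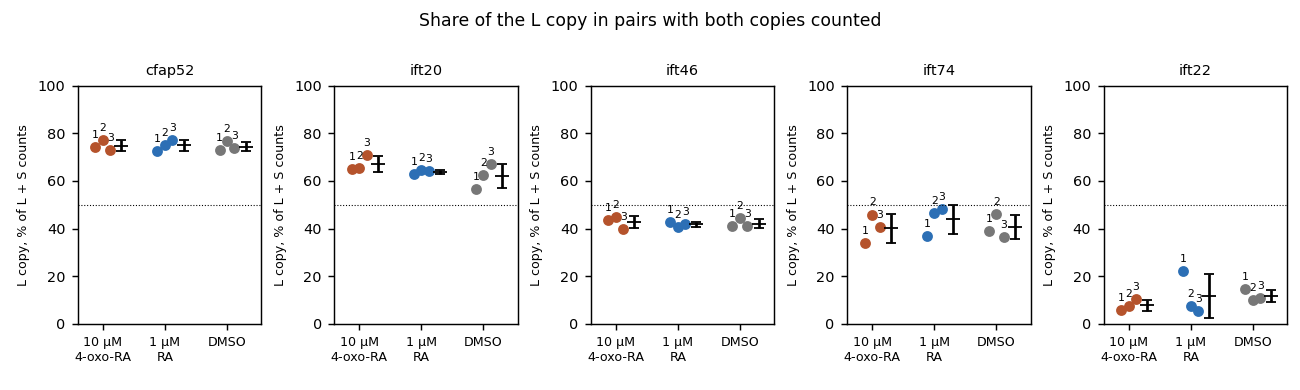
Share of the L copy in the summed L and S counts of the 5 pairs with both copies counted, in percent, per library (points, numbered by replicate), with the mean and SD of each group (black); the dotted line is 50%. L leads in cfap52 and ift20, S in ift46, ift74 and ift22, in every library, and DMSO overlaps with both retinoids in each pair.

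The regulators of multiciliated cells were measured in the same libraries. foxj1.S, the S copy of the factor that switches on motile cilium genes, had 74.8, 66.8 and 49.9 CPM in 4-oxo-RA, 77.3, 80.5 and 64.8 CPM in RA, and 60.7, 51.0 and 56.0 CPM in DMSO. The RA libraries were all above the DMSO libraries, and 4-oxo-RA overlapped with both. The log2 fold change in RA over DMSO was 0.41 ± 0.16, which did not pass in the main fit (edgeR adjusted p = 0.403) and passed with the block (adjusted p = 0.0457). foxj1.L had -0.25 ± 0.24 (adjusted p = 0.902). mcidas.S averaged 53.0 ± 15.0 CPM in 4-oxo-RA, 60.1 ± 11.7 CPM in RA and 55.2 ± 17.4 CPM in DMSO, and ccno.S 26.7 ± 5.44, 31.5 ± 0.525 and 27.7 ± 2.19 CPM. rfx2.S averaged 33.0 ± 3.16, 34.4 ± 4.47 and 41.3 ± 9.33 CPM. The rows gmnc.L, gmnc.S, rfx2.L, rfx3.L and rfx3.S were at 0 counts in all 9 libraries. The counter and annotation are not known here, so these zeros are uncertain as levels.

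Other lists of cilium genes, chosen like the members with earlier results of these data known, also gave no call in the main fit. Of the 19 tested regulator rows, 14 of centriole amplification, 14 of dynein assembly and docking, 15 of the central pair and ruler, 14 of IFT motors and further IFT subunits and 10 of the BBSome, 0 were called in any of the 3 comparisons in the main fit. The blocked fit called 1 gene besides foxj1.S, ttc21b.L, which encodes an IFT-A subunit, at -0.49 ± 0.22 in RA over DMSO (edgeR adjusted p = 0.519 in the main fit and 0.0288 with the block). In RA over DMSO 1.68% of all genes were called in the main fit and 6.67% with the block. In 4-oxo-RA over DMSO these shares were 0.735% and 3.36%, and in 4-oxo-RA over RA 0% and 0.159%. The median log2 fold changes of the central pair and ruler list were 0.20 in RA over DMSO, -0.06 in 4-oxo-RA over DMSO and -0.26 in 4-oxo-RA over RA.

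Lists of other cell types in this tissue held called genes in the same fits. Of 16 tested rows of ionocyte genes, 3 rose in RA over DMSO (foxi4.2.S, slc4a1.L and tfcp2l1.L) and 0 fell, with a median log2 fold change of 0.38, beside 1.68% of all genes called in either direction. With the block 8 rose and 0 fell, beside 6.67% of all genes. In 4-oxo-RA over DMSO 2 rose (foxi4.2.S and slc4a1.L) and 0 fell, with a median of 0.09, beside 0.735% of all genes, and with the block 4 rose and 0 fell, beside 3.36%. In 4-oxo-RA over DMSO, slc4a1.L was lost in each fit that left out 1 library except the one without 4-oxo-RA replicate 3, and foxi4.2.S in those without DMSO replicate 1 or DMSO replicate 2.

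Other lists held genes that fell. Over all genes, 1.68% were called in either direction in RA over DMSO, and 6.67% with the block. Of 17 tested neural plate rows, 3 fell in RA over DMSO (otx2.L, otx2.S and six3.L) and 0 rose. The median was -0.48, and 9 fell with the block. All 3 rows called in the main fit are copies of otx2 or six3, on a list of 10 symbols. These 3 calls therefore do not measure the neural plate as a whole. Of 8 rows of a mixed list of axial midline, organizer and gastrocoel roof plate genes, 2 fell (gsc.L and gsc.S) and 0 rose. The median was -1.28, and 6 fell with the block. Both rows called in the main fit are copies of the organizer gene gsc, so these 2 calls do not measure the ciliated roof plate. The 6 rows that fell with the block include genes other than gsc. Of 25 rows of Notch control of epidermal spacing, 1 fell (hes5.5.L) and 0 rose, with a median of -0.55, and 5 fell with the block. Of 9 rows of small secretory and goblet cells, foxa1.L rose and krt70.L fell, and with the block 3 rose and 2 fell. In 4-oxo-RA over DMSO, otx2.L and gsc.S fell, and none of the other rows of these 4 lists was called in the main fit. There 0.735% of all genes were called, and 3.36% with the block. With the block 4 neural plate rows, 5 of the axial midline list and 1 of the Notch list fell, and 0 rose. Of the secretory and goblet rows 1 rose and 2 fell. The calls of six3.L, gsc.L, hes5.5.L and foxa1.L in RA over DMSO, and those of otx2.L and gsc.S in 4-oxo-RA over DMSO, were each lost in the fit without DMSO replicate 1, in that without DMSO replicate 3 and in further fits that left out 1 library. In bulk tissue the values of a list cannot be assigned to the cell type or process it is named for. The difference between any of these lists and the cilium genes was not tested.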

How the data were processed

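The authors deposited raw counts per gene, whole numbers in 1 table of 9 libraries and 9 single-library tables, each equal to its column. The submitters' processing notes name STAR 2.7.3 as the aligner. The library kit was stranded, per the labels' protocols. Which counter, build and annotation were used is not given in the sources used here. For this reason neither coordinates nor sequences are printed. Of the 85 symbols, 76 matched the RefSeq table of Xenopus_laevis_v10.1. Genes were tested with edgeR's quasi-likelihood method (edgeR 4.0.16, R 4.3.3) with TMM scaling, filterByExpr by group, treatment as the only factor and Benjamini-Hochberg adjustment over 20811 genes, at an adjusted p of 0.05. Standard errors were the log2 fold change over the root of F, so intervals are approximate. Log2 CPM used a prior count of 2. Scripts were tested on simulated data.

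Across treatments, deviations from the group means correlated between libraries sharing a replicate number (r between 0.434 and 0.536). Between other libraries r was negative (between -0.326 and -0.132). The deviations within a group sum to 0, so these negative values follow from the positive ones and are no separate evidence. The numbers therefore pair the samples, on the data alone, since the labels tie no number to a female. Over the 60 cilium genes alone the pairing was weaker, with r between -0.177 and 0.525 for shared numbers and between -0.513 and 0.328 for other pairs. No library was a copy of another: pairs within a treatment had a chi-square between 14.3 and 21.6 per degree of freedom.

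A naming rule picked, in each role, the 2 members with the most counts and the 1 with the smallest p, plus a fixed set of well-known genes. Not all of these are described in the text. Among those left out are cfap126.L, cfap100.L, cfap73.S, cfap36.L, cfap92.L, cfap74.L and ift43.L. cfap126.L had the smallest p of the doublet-lumen and tether group. With the block it had -0.53 ± 0.19 in 4-oxo-RA over RA (edgeR adjusted p = 0.494). Other members in the text were picked with their values in view. The members and lists were chosen with earlier results of these data known. The alternatives were RLE size factors, DESeq2 1.42.0, limma-voom (limma 3.58.1), no filter, the replicate block, a floor of 10 counts per library, separate fits of each pair of groups, summed homeologs and each library left out.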

Additional observations from a re-analysis of the deposited data

How the results depend on the processing

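Calls among the cilium genes did not depend on the processing tried: 0 were called in either direction in any of the 3 comparisons under every alternative, including each library left out. With the replicate number as a block, which pairs the samples, the counts of calls were also 0, while calls over all genes went up to 1389 in RA over DMSO, 700 in 4-oxo-RA over DMSO and 33 in 4-oxo-RA over RA, against 349, 153 and 0. For the genes picked by the naming rule, described in the text or not, 592, 591 and 591 log2 fold changes were refitted in these comparisons. The smallest adjusted p was 0.103, 0.369 and 0.23, each from edgeR with the block. The sign changed in 24, 57 and 24 of the refitted values. None of these was called. The low-count filter was rerun in each fit that left out a library, so the number of tested cilium genes varied. Their median in RA over DMSO lay between 0.03 (62 genes, without RA replicate 2) and 0.19 (61 genes, without RA replicate 3). In 4-oxo-RA over DMSO it lay between -0.14 (62 genes, without 4-oxo-RA replicate 1) and 0.09 (62 genes, without 4-oxo-RA replicate 3). A search of promoter letters was not run, because no promoter sequences were used here. With 3 libraries a group and a median standard error of 0.22 in the main fit, changes of 2-fold or less could go uncalled. With the replicate number as a block the median standard error was 0.15, and 0 were called there too. Among genes with few counts, ift22.L was not called at -1.08 ± 0.58 in 4-oxo-RA over DMSO (edgeR adjusted p = 0.953).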

Other observations

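The RefSeq table names a pair of symbols that meet the rule but that the deposited table lists under LOC identifiers, so they were not among the members. The row that RefSeq calls dnai7.L had 0 counts in all 9 libraries. The row that it calls tekt3.S had 106, 161 and 119 counts in 4-oxo-RA, 137, 281 and 139 in RA, and 113, 307 and 208 in DMSO. These raw counts were not scaled to the unequal library totals, so no comparison between treatments was made of them. Whether tekt3.S follows tekt3.L was not tested.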
